A study of Mus musculus with 4 samples.

Results

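The Discs large (Dlg) scaffolds, Scribble, the lethal giant larvae (Llgl) proteins and the Lin7 adaptors were examined as 10 genes, each read by 1 probe set, out of 35556 probe sets and 19938 named genes on the array. They were *Dlg1*, *Dlg2*, *Dlg3*, *Dlg4*, *Dlg5*, *Scrib*, *Llgl1*, *Llgl2*, *Lin7a* and *Lin7c*. The genes were chosen by family membership, with the mutant and wild-type signals of these same arrays already known. Their differences between genotypes, with the intervals and p-values beside them, are therefore given as a description and not as support for the choice. Whole cochleas of E15 mouse embryos were compared on Affymetrix Mouse Gene ST arrays, of which 2 held wild-type embryos (replicates 2 and 3) and 2 held *Meis2* mutants (replicates 1 and 2). The labels call the mutants Meis2 ko, and the methods give them as Meis2 flox/flox; Pax2 Cre/+, a conditional deletion of a homeobox transcription factor by a Cre that is driven from *Pax2* in the otic placode. Cells of the cochlea outside that lineage keep the gene, and how many embryos went into a sample is not given in the sources used here. If arrays of a genotype were not made from separate embryos, the standard errors and p-values cover only technical spread.

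Epithelial cells keep an apical and a basolateral side apart with 3 sets of proteins. The Scribble module, made of Scribble, Dlg and Lgl, marks the basolateral side and opposes the Par and Crumbs complexes, which mark the apical side. Dlg proteins are membrane-associated guanylate kinases (MAGUKs), scaffolds that gather receptors, adhesion molecules and channels through PDZ domains, and several of them also organize the postsynaptic side of synapses. Lin7 proteins are small PDZ adaptors that join MAGUK complexes at cell junctions and synapses. In the inner ear, polarity within the epithelial sheet accompanies the outgrowth of the cochlear duct and the orientation of hair cells.

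Past the adjusted threshold given below, *Lin7c* and *Dlg1* were lower in mutant cochleas, while *Scrib*, *Llgl1*, *Llgl2* and *Dlg4* were higher. In RNA of whole cochleas, fewer cells of a type and less RNA per cell cannot be told apart. Each difference is the mutant mean less the wild-type mean of log2 signals. They ranged from -1.28 for *Lin7c* to 1.13 for *Scrib*, and 5 of the 10 genes had a positive and 5 a negative difference. An adjusted p below 0.05 from limma, a linear model that shares the spread between probe sets, was reached by 6 of the 10, against 37.3 percent of all probe sets. Without mutant replicate 1 or mutant replicate 2 it was reached by 3, *Dlg1*, *Scrib* and *Lin7c*. With all arrays, 4 of the 10 genes passed it as higher, against 21.6 percent of all probe sets and 24.2 percent of all genes. As lower, 2 of the 10 passed it, against 15.7 percent of all probe sets and 16.2 percent of all genes. The arrays of the 2 genotypes did not overlap for 8 of the 10 genes, a state shared by 76.1 percent of all probe sets. Since the same contrast was known when the genes were chosen, nothing is read from these counts. The median difference of the 10 genes was 0.07, beside 0.13 for all genes, and became -0.01 after median scaling, which sets the median signal of each array to a common value, and 0.12 after quantile normalization was repeated.

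**Figure D1:**
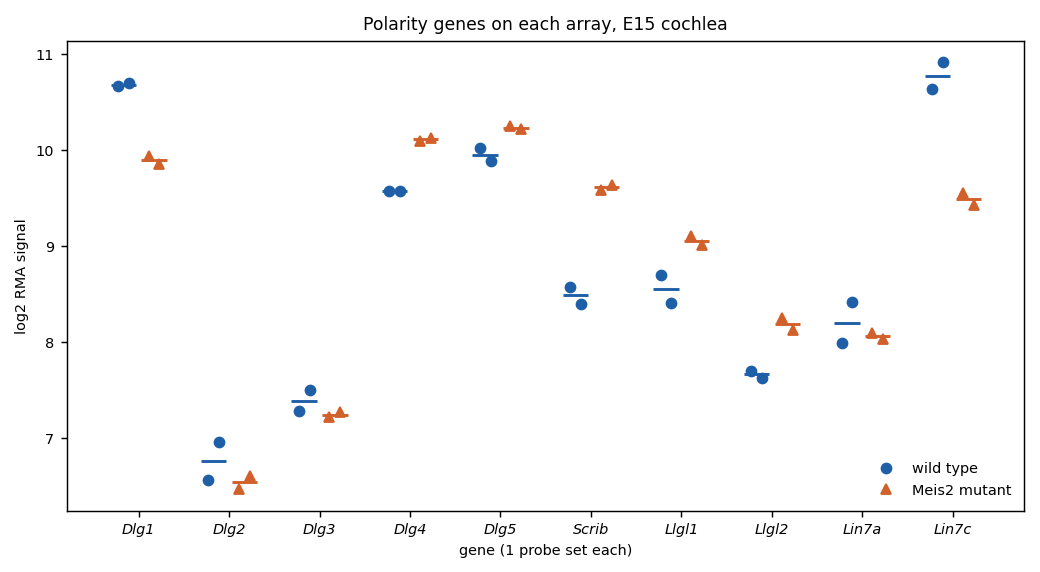
Log2 signal (y axis) of the 10 genes (x axis) on each array, with circles for wild-type arrays, triangles for mutant arrays and horizontal lines for the mean of each genotype. The mutant arrays lie below the wild-type arrays for Dlg1, Lin7c and, by 0.01, Dlg3 and above them for Dlg4, Dlg5, Scrib, Llgl1 and Llgl2, and heights are not comparable between genes, since each probe set has its own response.

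Among the Dlg scaffolds, *Dlg1* encodes a MAGUK of epithelial junctions and mice that lack it are known to have a short cochlea. *Dlg1* had wild-type log2 signals of 10.67 and 10.70, against mutant signals of 9.94 and 9.86. Both mutant arrays were below both wild-type arrays, and the gap of 0.73 between the nearest arrays of the genotypes was wider than the gaps of 0.03 and 0.08 within them. On average, *Dlg1* differed by -0.78 (standard error 0.08, 95% confidence interval -0.99 to -0.57), a 1.72-fold lower signal. It lay between -0.82 and -0.75 when any 1 array was left out, and was -0.87 after median scaling.

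The annotated starts of *Dlg1* are shown to set the gene beside the motifs of the deleted factor. The paper reports Meis2 binding near *Dlg1* in a cell line of the otic vesicle. Most binding sites in that experiment lay far from a start, and whether the one near *Dlg1* falls in these windows was not tested. Windows from 250 bases before to 50 bases after each start were taken from RefSeq (build GRCm38.p6) and searched on both strands for TGACAG, the site that Meis proteins bind directly, and for TGATNNAT and AGATNNAT, forms of the Pbx-Hox site, where Meis proteins can join a complex. *Dlg1* had 4 windows, 1 of which held a match, and capitals mark it. The first sequence printed, which holds 71 percent G and C, lies at chr16:31663685-31663984 on the plus strand and has no match. The second lies at chr16:31754100-31754399 on the plus strand and has AGATNNAT starting 183 bases before the annotated start.
Dlg1, start 2: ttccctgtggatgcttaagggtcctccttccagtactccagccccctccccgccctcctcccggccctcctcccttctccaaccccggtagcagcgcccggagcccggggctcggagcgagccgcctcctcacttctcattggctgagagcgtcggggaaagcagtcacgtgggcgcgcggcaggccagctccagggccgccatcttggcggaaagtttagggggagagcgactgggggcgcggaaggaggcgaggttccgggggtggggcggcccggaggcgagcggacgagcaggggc
Dlg1, start 4: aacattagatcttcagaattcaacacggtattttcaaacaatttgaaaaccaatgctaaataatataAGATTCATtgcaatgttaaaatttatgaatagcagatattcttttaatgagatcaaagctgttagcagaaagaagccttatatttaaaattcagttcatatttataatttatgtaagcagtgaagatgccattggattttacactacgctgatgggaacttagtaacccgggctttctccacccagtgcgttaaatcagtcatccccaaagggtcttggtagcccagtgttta

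*Dlg4*, which encodes the postsynaptic scaffold PSD-95, had wild-type signals of 9.58 and 9.58, against mutant signals of 10.10 and 10.13. The difference of 0.53 (standard error 0.08, 95% confidence interval 0.33 to 0.73) ran opposite to that of *Dlg1*. Within each array, which no shift of the whole array can alter, *Dlg4* moved relative to *Dlg1* by 1.32 on the log2 scale. The call of *Dlg4* was lost without either mutant array. *Dlg5*, a larger relative that holds cell junctions together in epithelia, had wild-type signals of 10.02 and 9.89, against mutant signals of 10.25 and 10.22. Its mutant arrays were also above its wild-type arrays, but the difference was smaller, at 0.28 (95% confidence interval 0.05 to 0.50). *Dlg5* missed the adjusted threshold on the deposited values and passed it with a trended prior or when only probe sets with 1 symbol were tested.

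*Dlg2* and *Dlg3*, whose proteins PSD-93 and SAP102 are best known from synapses, were not separated by genotype beyond the spread between arrays. *Dlg2* had wild-type signals of 6.57 and 6.96, against mutant signals of 6.47 and 6.61. The genotypes overlapped, and the difference of -0.22 (95% confidence interval -0.62 to 0.17) was smaller than the gap of 0.38 between the wild-type arrays. The signals of *Dlg2* were close to the array medians, which were 6.63 to 6.73. *Dlg3* had wild-type signals of 7.28 and 7.50, against mutant signals of 7.22 and 7.27, so that the nearest arrays of the genotypes were 0.01 apart. Its difference was -0.14 (95% confidence interval -0.41 to 0.12). *Dlg3* lies on chromosome X, and the array with the lower of its 2 wild-type signals also had *Xist*, the RNA of the inactive X chromosome, at 5.54, against 11.51 to 11.84 on the other 3 arrays. Without that array the difference of *Dlg3* was -0.25, and the part of embryo sex in it was not tested. For every other gene too, the gap between the 2 wild-type arrays is a gap between low and high *Xist*. The part of embryo sex in those gaps was not tested either.

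**Figure D2:**
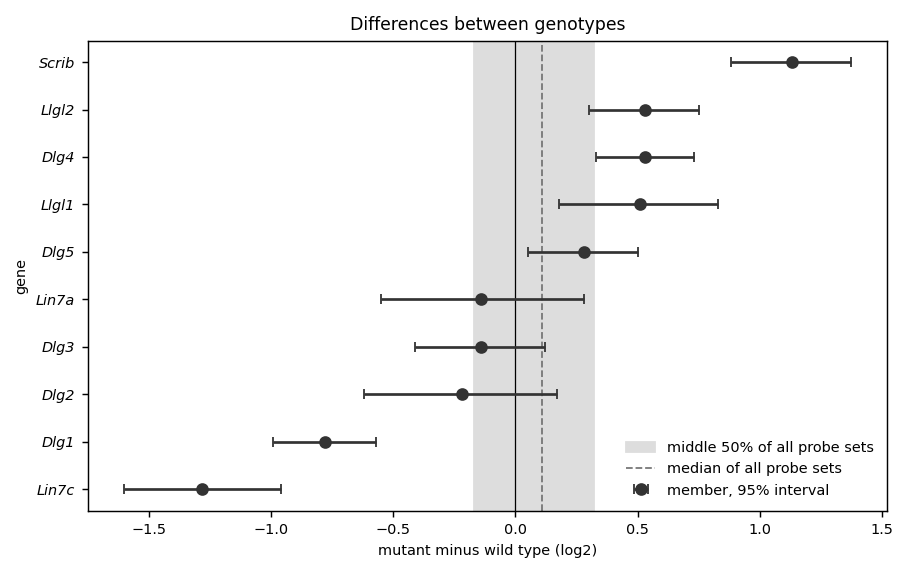
Mutant less wild-type mean log2 signal (x axis) for each gene (y axis), with the 95% confidence interval from limma. The grey band spans the quartiles of all probe sets (-0.17 to 0.32) and the dashed line is their median (0.11), and the intervals of Dlg1 and Lin7c lie below the band while those of Scrib and Dlg4 lie above it.

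*Scrib* encodes the large leucine-rich repeat and PDZ protein that gives the module its name, and a role in hair cell orientation is known. Its wild-type signals were 8.58 and 8.40, and its mutant signals were 9.59 and 9.64. Both mutant arrays were above both wild-type arrays by at least 1.01, and the gaps within genotypes were 0.17 and 0.06. The mutant mean was higher by 1.13 (standard error 0.10, 95% confidence interval 0.88 to 1.37), a 2.18-fold higher signal. Median scaling gave 1.04 and quantile normalization 1.18. *Scrib* minus *Dlg1* was -2.09 and -2.29 in the wild type, against -0.35 and -0.22 in the mutant. Within arrays, *Scrib* thus moved relative to *Dlg1*, its partner in the module, by 1.91 on the log2 scale.

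*Llgl1* and *Llgl2* encode the Lgl proteins, which the atypical protein kinase C of the Par complex phosphorylates and thereby keeps off the apical side, and the RNA signals of both were higher in the mutant. *Llgl1* had wild-type signals of 8.70 and 8.41, against mutant signals of 9.11 and 9.01. *Llgl2* had wild-type signals of 7.70 and 7.63, against mutant signals of 8.25 and 8.13. For both paralogs the mutant arrays were above the wild-type arrays. The differences were 0.51 for *Llgl1* (standard error 0.12) and 0.53 for *Llgl2* (standard error 0.09), and *Llgl2* minus *Llgl1* shifted by 0.02 between genotypes, within its standard deviation of 0.16 between wild-type arrays. The spread between wild-type arrays was wider for *Llgl1* (0.29) than for *Llgl2* (0.07), and without wild-type replicate 3 the difference of *Llgl1* was 0.36. Both genes lost their calls without either mutant array, and *Llgl1* also lost its call without wild-type replicate 3 and under median scaling.

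The Lin7 adaptors differed from each other. *Lin7c* had wild-type signals of 10.64 and 10.92, against mutant signals of 9.56 and 9.43, with both mutant arrays lower by at least 1.08. The difference of -1.28 (standard error 0.12, 95% confidence interval -1.60 to -0.96), a 2.43-fold lower signal, was the widest of the 10 genes. It stayed between -1.42 and -1.14 when any 1 array was left out. *Lin7a* had wild-type signals of 7.99 and 8.42, against mutant signals of 8.10 and 8.04. The mutant values fell between the wild-type values, and the difference was -0.14 (95% confidence interval -0.55 to 0.28), or 0.08 without wild-type replicate 3. Within arrays, *Lin7c* moved relative to *Lin7a* by -1.14 on the log2 scale.

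The start regions of the paralogs are shown because one was lower and the other overlapped between genotypes. Since they were picked by these differences, the motifs in them are not read against the differences. *Lin7c* has 1 window, at chr2:109890628-109890927 on the plus strand, with no match to the 3 motifs. The second of 2 windows of *Lin7a*, at chr10:107272144-107272443 on the plus strand, has TGACAG starting 207 bases before the annotated start, in capitals.
Lin7c: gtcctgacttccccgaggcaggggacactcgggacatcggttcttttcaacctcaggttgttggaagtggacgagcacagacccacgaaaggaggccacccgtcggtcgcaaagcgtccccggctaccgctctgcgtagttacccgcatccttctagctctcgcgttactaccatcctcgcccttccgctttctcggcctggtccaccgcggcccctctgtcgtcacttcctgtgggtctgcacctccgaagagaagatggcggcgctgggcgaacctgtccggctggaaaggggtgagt
Lin7a, start 2: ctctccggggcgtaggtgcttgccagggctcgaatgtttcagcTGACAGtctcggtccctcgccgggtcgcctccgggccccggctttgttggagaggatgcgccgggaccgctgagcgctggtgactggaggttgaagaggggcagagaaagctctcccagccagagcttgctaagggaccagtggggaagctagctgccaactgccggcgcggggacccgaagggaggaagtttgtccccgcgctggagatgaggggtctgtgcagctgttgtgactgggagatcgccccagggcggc

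Windows were found for 8 of the 10 genes, the others being *Scrib* and *Llgl2*, and 5 of their 17 windows held at least 1 of the motifs, against 32 percent of all 32851 windows in the table. TGACAG was in 4 of the 17 windows, against 19.2 percent of all. These were 2 windows of *Dlg2*, with the site starting 198 and 35 bases before the start, 1 of *Dlg3*, 205 bases before it, and the window of *Lin7a*. AGATNNAT was in 3, against 9.4 percent, and TGATNNAT in 0, against 8.85 percent, and no matches overlapped. The windows of *Dlg4*, *Dlg5* and *Llgl1* held no match. A match is a description of the letters in a window and not a site of binding.

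The genes whose 4 signals, each set against its own wild-type mean, lay nearest to those of *Dlg1* were *Tmem128*, *Pkn2* and *Fmr1*, among 13803 genes with a mean signal of at least 6. Their Euclidean distances over the 4 arrays were 0.022, 0.025 and 0.029 on the log2 scale. *Pkn2*, a protein kinase, had wild-type signals of 9.89 and 9.89, against mutant signals of 9.16 and 9.07. With 4 arrays this likeness is a description only.

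Of 77 measured genes in 8 lists of other polarity and scaffold genes, which do not hold the 10, 23 were higher and 14 lower past the threshold, and 40 did not pass it. With 1 probe set per gene, the one with the highest mean, 24.2 percent of all genes were higher and 16.2 percent lower. After median scaling the counts became 18 higher and 20 lower, and those of all 19938 genes turned the same way, from 4822 higher and 3227 lower to 3132 higher and 3778 lower. Without any 1 of the 4 arrays, 12 of the 37 calls held throughout, 6 higher and 6 lower, and all 25 others ended when a mutant array was left out. In the order of the lists below, those 12 were *Pard6a*, *Mpp5*, *Mpp6*, *Tjp1*, *Dlgap4*, *Trip6*, *Ocln*, *Nlgn2*, *Cacng2*, *Adam22*, *Shank2* and *Homer1*.

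Of 11 other MAGUKs, 4 were lower, 1 was higher and 6 did not pass, and the list median was -0.21, which became -0.29 under median scaling and -0.12 under quantile normalization. *Mpp6*, a palmitoylated membrane protein with L27 domains of the kind that bind Lin7, fell by 1.13 (adjusted p = 0.00297), whereas the other probe set of the gene had a difference of -0.22. *Tjp1*, the tight junction scaffold ZO-1, fell by 0.64 (adjusted p = 0.00612) and *Mpp1* fell by 0.55 (adjusted p = 0.00952). *Tjp3*, which encodes the related scaffold ZO-3, rose by 0.66 (adjusted p = 0.0112). *Cask*, which forms a complex with Lin7 proteins, had wild-type signals of 11.12 and 10.97, against mutant signals of 10.66 and 10.64. It fell by 0.39 (adjusted p = 0.0283), and this call was lost when wild-type replicate 2 or either mutant array was removed. *Cask* lies outside the rule for named genes and was named after its value was seen. Both *Cask* and *Mpp1* lie on chromosome X, and wild-type replicate 2 was the array with *Xist* at 5.54. The part of embryo sex in their differences was not tested.

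In the Crumbs complex, 2 of 6 genes were higher and 1 was lower. The lower gene was *Mpp5*, which encodes PALS1, the link between Crumbs and Lin7, with wild-type signals of 8.78 and 8.74 against mutant signals of 7.96 and 7.99. It fell by 0.78 (standard error 0.08, adjusted p = 0.00429). The apical membrane proteins *Crb3* and *Crb2* rose by 0.54 and 0.37 (adjusted p = 0.0232 and 0.0283), and *Crb2* lost its call under both other scalings. In the Par complex, 1 of 8 genes was higher and 1 lower. *Pard6a*, an adaptor of Cdc42 and atypical protein kinase C, rose by 0.89 (adjusted p = 0.00364), and *Prkci*, the kinase iota itself, fell by 0.52 (adjusted p = 0.0116). The other 6 genes of the list did not pass, with differences of -0.11 to 0.33.

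Of 6 relatives of Scribble, Lgl and Lin7, 2 were lower and none was higher. *Erbin*, which shares the leucine-rich repeat and PDZ layout of Scribble, fell by 0.53 (adjusted p = 0.00881), and *Lrrc7*, the synaptic densin of the same family, fell by 0.37 (adjusted p = 0.0392). *Scrib* itself had a difference of 1.13, of the opposite sign. The medians of the Par, Crumbs and this last list lay between -0.04 and 0.04 on the deposited values and between -0.13 and -0.04 after median scaling.

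Of 14 binding partners of Dlg and Scribble, 7 were higher, 1 was lower and 6 did not pass (median 0.39, and 0.31 after median scaling). The LIM protein *Trip6*, a Scribble partner, rose by 0.68 (adjusted p = 0.00627). The Dlg-associated scaffolds *Dlgap4* and *Dlgap3* rose by 0.66 and 0.58 (adjusted p = 0.00651 and 0.00767). *Apc*, the tumor suppressor that binds the PDZ domains of *Dlg1*, fell by 0.42 (adjusted p = 0.0187). Of 7 genes of polarity kinases and their partners, listed as polarity kinases, 4 were higher and 1 lower (median 0.39, and 0.31 after median scaling). *Mark2*, a kinase of the basolateral side, rose by 0.56 (adjusted p = 0.0176), and its other probe set had a difference of 1.18. *Strada*, a partner of the kinase LKB1, rose by 0.50 (adjusted p = 0.0144), *Mark1* rose by 0.40 (adjusted p = 0.0184) and *Mark3* fell by 0.34 (adjusted p = 0.0447).

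Of 11 cell junction genes, 1 was higher, 2 were lower and 8 did not pass (median -0.20). The tight junction protein *Ocln* (occludin) fell by 0.79 (adjusted p = 0.00601), the junctional adhesion molecule *F11r* fell by 0.54 (adjusted p = 0.013) and *Nectin1* rose by 0.66 (adjusted p = 0.0109). The 8 that did not pass had differences of -0.25 to 0.01. After median scaling 5 genes of this list were lower.

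Of 14 postsynaptic genes whose products bind or gather around Dlg scaffolds, 7 were higher, 2 were lower and 5 did not pass (median 0.34, and 0.25 after median scaling, with 5 higher and 3 lower). *Cacng2* (stargazin), which ties AMPA receptors to PSD-95, had wild-type signals of 7.94 and 8.04, against mutant signals of 9.00 and 9.15. It rose by 1.09 (standard error 0.10, adjusted p = 0.00364), whereas its other probe set had a difference of 0.64. The scaffold *Shank2*, whose 3 probe sets differed by 0.43 to 1.02, rose by 1.02 (adjusted p = 0.00511) and the adhesion protein *Nlgn2* by 1.01 (adjusted p = 0.00429). *Homer1*, which links Shank to glutamate receptors, fell by 1.01 (adjusted p = 0.0033), and *Adam22*, a PSD-95 ligand at synapses, fell by 0.79 (adjusted p = 0.00402).

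**Figure D3:**
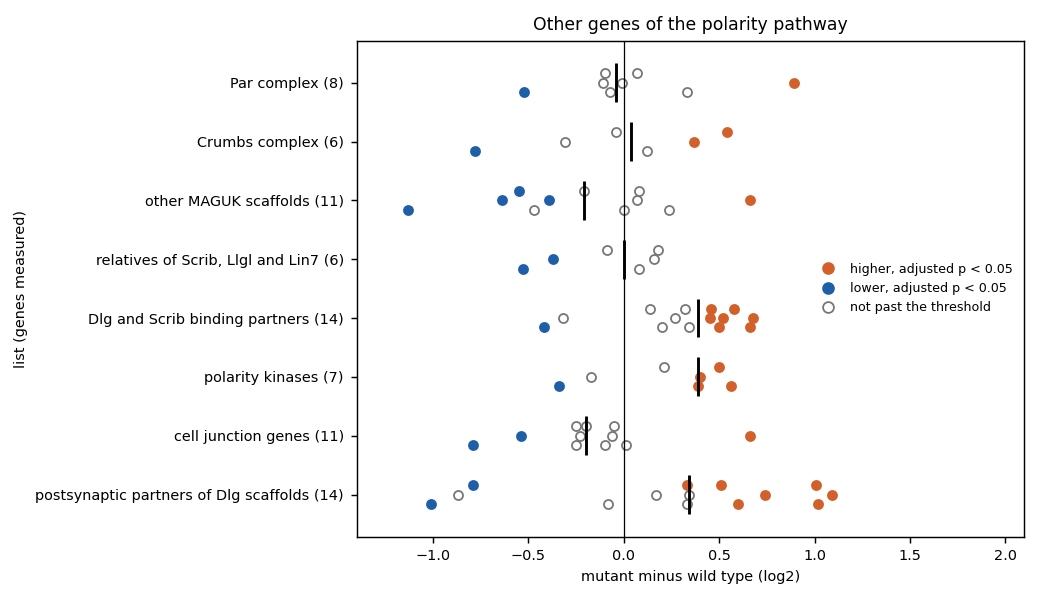
Mutant less wild-type mean log2 signal (x axis) of each gene of the 8 lists (y axis, gene number in brackets). Filled points passed an adjusted p of 0.05, open points did not, and black bars are list medians. These lie at 0.39 for binding partners and for the list labeled polarity kinases, and at -0.21 for the other MAGUKs.

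Cell type markers were counted in the same way, beside 24.2 percent of all genes higher and 16.2 percent lower. The 10 markers of the cochlear duct had log2 signals of 7.46 or more on every array, with no background level to set them against, and 1 was higher and 2 were lower. Of 10 ganglion neuron markers 5 were lower and none was higher, and their mean log2 signal was 8.94 and 9.01 in the wild type, against 8.43 and 8.37 in the mutant. Of 6 glial markers 3 were lower and 1 was higher. Of 10 skeletal muscle markers 9 were higher and none was lower, and their mean log2 signal was 6.28 and 6.51 in the wild type, against 6.93 and 7.30 in the mutant. After median scaling 4 of them were higher, and 6 after quantile normalization. Of 7 markers of mesenchyme and cartilage 2 were higher and 1 was lower, and of 3 erythroid markers 2 were higher and 1 was lower, or 0 higher after median scaling. The part of these cell types in the polarity genes was not tested. *Meis2* itself had wild-type signals of 9.64 and 9.38, against mutant signals of 9.61 and 9.80, and whether its probe set lies in the deleted part is not given in the sources used here, so it does not check the labels.

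**Figure D4:**
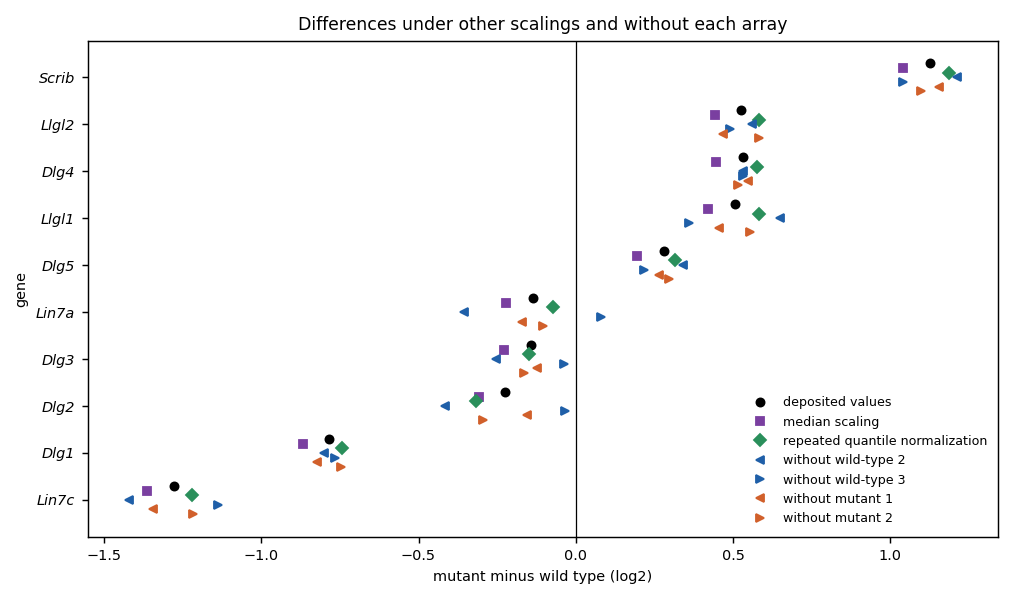
Mutant less wild-type mean log2 signal (x axis) of each gene (y axis) on the deposited values, under median scaling or repeated quantile normalization, and without each array. Dlg1 and Lin7c stay below 0 and Scrib, Llgl1, Llgl2, Dlg4 and Dlg5 above it throughout, while Lin7a moves from -0.35 without wild-type replicate 2 to 0.08 without wild-type replicate 3.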

How the data were processed

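RNA of whole E15 cochleas was amplified, labeled and hybridized to 4 Mouse Gene ST arrays, 2 per genotype. The deposited values are log2 signals, 1 for each probe set, which the authors obtained by RMA (background correction, normalization and summary of probes). RMA and the build mm8 are named in the submitters' notes on processing. Scanner files were not used here, so RMA was not repeated.
limma 3.58.1 in R 4.3.3 (lmFit, eBayes, no covariate, no filter) was fitted to all 35556 probe sets with Benjamini-Hochberg adjustment and a threshold of 0.05. Its spread rests on 2 residual and 2.91 prior degrees of freedom, so the number of arrays limits the precision. The code was tested on simulated data with the same spread for every probe set, which checks the code and not the calls made here. The significance analysis of microarrays that the methods name was not run. The platform annotation gave 1 symbol to 21789 probe sets, of which 21698 were updated through a current record, and 1621 probe sets carrying several symbols were not assigned.
The members, lists and tests were chosen with earlier results of these data known. All 10 genes are named, with the called genes of largest difference in each list (up to 3 in each direction), any list's largest difference even if not called, and the 3 genes nearest to *Dlg1*. Some genes of the lists are not reported here. Marker lists were read by counts and mean log2 signals. The alternatives covered scaling (by the median, or a second quantile normalization), the removal of probe sets dimmer than 6 in both genotypes, the prior (trended or robust), the restriction to single-symbol probe sets, a threshold of 0.1, averaging the probe sets of each gene, and the removal of each array.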

Additional observations from a re-analysis of the deposited data

How the results depend on the processing

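No paired analysis was run, because the labels record no pairing of wild-type with mutant arrays. Leaving out 1 array gave 4611 to 10895 probe sets past the threshold in place of 13268, with 5811 without mutant replicate 1 and 4611 without mutant replicate 2. It gave 3 to 6 of the 10 genes in place of 6 and 12 to 33 of the other polarity genes in place of 37. Without mutant replicate 1 or mutant replicate 2 the 3 genes past the threshold were *Dlg1*, *Lin7c* and *Scrib*, while *Dlg4*, *Llgl1* and *Llgl2* lost their calls, and *Llgl1* also lost its call after median scaling and without wild-type replicate 3. A left-out array leaves its genotype with 1 array, assumed to vary like the others, and fewer samples. The other alternatives left each of these 3 counts within 1.5 times its value. The share of calls that were lower was 42 percent, became 56 percent under median scaling and 47.5 percent under quantile normalization, and over the other polarity genes it was 37.8, 52.6 and 35.3 percent. No gene that passed the threshold and is named from the lists by the rule, and none of the 6, changed sign under the alternatives run. Signal over background was not measured here, and the level of *Dlg2* was close to the median of all probe sets.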
